A study of Homo sapiens with 4 samples.

Results

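Transcripts of 38 genes for subunits of the proteasome, its immunoproteasome form and its activators were followed among the 39259 genes of an RNA sequencing table from MDA-MB-231, an established cell line of human triple-negative breast cancer. The genes were taken by name from the RefSeq symbols of the table's Entrez identifiers, and all 38 were present. They were the 7 subunits of the 20S alpha ring, 4 structural and 3 catalytic subunits of the constitutive beta ring, and the 3 immunoproteasome catalytic subunits. They also held 6 ATPases and 3 other subunits of the 19S base, 8 subunits of the 19S lid, the 3 subunits of the 11S activators and PA200. Set against each other were 2 libraries labelled as a knockout (KO) of mdig, the oxygenase also called MINA53 and encoded by RIOX2, and 2 libraries of wild-type (WT) cells. Both groups were grown in DMEM/F-12 with serum and antibiotics and no other agent. The labels do not say how the knockout was made, whether it was 1 clone, or whether replicates were separate cultures. P-values below therefore reflect only how far these 4 libraries scatter, and that scatter may be technical.

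The fragments assigned to genes numbered 48768932 and 52163811 in the libraries labelled KO, against 45173267 and 22503981 in the WT libraries. RIOX2 itself measured 9.23 and 9.82 FPKM (fragments per kilobase and per 1000000 assigned fragments) in the libraries labelled KO, and 8.60 and 8.24 FPKM in WT. Its RNA was thus not lower under the KO label (log2 change 0.16, limma adjusted p = 0.0546), and every direction below is between libraries as labelled. Among genes known for this line, vimentin (VIM) measured 2000 FPKM in both libraries labelled KO and 2275 and 2394 FPKM in WT. VIM was called lower (−0.22, limma adjusted p = 0.0154). CAV1 measured 326 and 335 FPKM under the KO label and 216 and 223 FPKM in WT, and was called higher (0.59, adjusted p = 9.19e-05). CD44 was also called higher (0.18, adjusted p = 0.0415), and AXL and MSN were not called. The calls of CAV1, VIM and CD44 were kept under 16, 13 and 7 of 16 alternative settings. The oestrogen and progesterone receptors ESR1 and PGR did not exceed 0.00117 FPKM. Other genes taken as low or absent in this line were less clear. ERBB2 measured 14.3 and 13.2 FPKM under the KO label and 13.3 and 12.7 FPKM in WT. EPCAM measured 2.64 and 2.65 FPKM under the KO label and 2.15 and 1.87 FPKM in WT, and was called higher (0.28, adjusted p = 0.0103). CDH1, the epithelial cadherin, measured 0.597 and 0.625 FPKM under the KO label and 0.177 and 0.128 FPKM in WT. The part of these genes in the results was not tested. Of 10 leukocyte markers, chosen because leukocytes make the immunoproteasome without stimulation, 0 reached a mean of 1 FPKM over the 4 libraries. Their summed level was 1.60 and 1.48 FPKM in the libraries labelled KO and 2.29 and 2.27 FPKM in WT, with the B cell marker MS4A1 at 0 in all libraries. In bulk RNA such as this, fewer cells of a type and less RNA per cell cannot be told apart.

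The proteasome degrades proteins tagged with ubiquitin. Its 20S core is a barrel of alpha rings, which gate the entrance, around beta rings, which hold the proteolytic sites, and the 19S regulatory particle binds, unfolds and de-ubiquitinates the substrate. Interferon-gamma makes cells replace the 3 catalytic beta subunits by PSMB8, PSMB9 and PSMB10 and add the PA28 activator of PSME1 and PSME2, a form known for cutting peptides that MHC class I molecules present.

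The subunits moved in both directions. The immunoproteasome catalytic subunits and both PA28 genes rose in the libraries labelled KO, whereas most 19S subunits that were called fell. All 38 genes passed the filter of a mean of at least 1 FPKM and were tested. In a limma fit of log2(FPKM + 1) over all 11716 genes tested, Benjamini-Hochberg adjusted with a threshold of 0.05, 10 of the 38 were higher and 15 lower under the KO label, and 13 were not called. That is 65.8% called, against a background of 49.9% of all genes tested. In that background 21.6% of the genes were higher, beside 26.3% of the subunits, and 28.4% were lower, beside 39.5% of the subunits. The median log2 change was −0.065 over the subunits and −0.041 over all genes tested. The calls depended on the libraries kept. Without KO replicate 1 there were 6 higher and 7 lower, and without KO replicate 2 there were 5 higher and 8 lower. This is 34.2% of the subunits in each fit, beside 32.5% and 30.1% of all genes tested in the same fits, so the subunits' share was then near the background. A set of 10 subunits was called in the same direction under all 16 alternative settings: PSMB1, PSMB8, PSMB9, PSMB10 and PSME1 as higher, and PSMB3, PSMC4, PSMC5, PSMD11 and PSME3 as lower. How many of all genes tested held under all 16 was not counted, so the 10 cannot be set against a background.

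**Figure D1:**
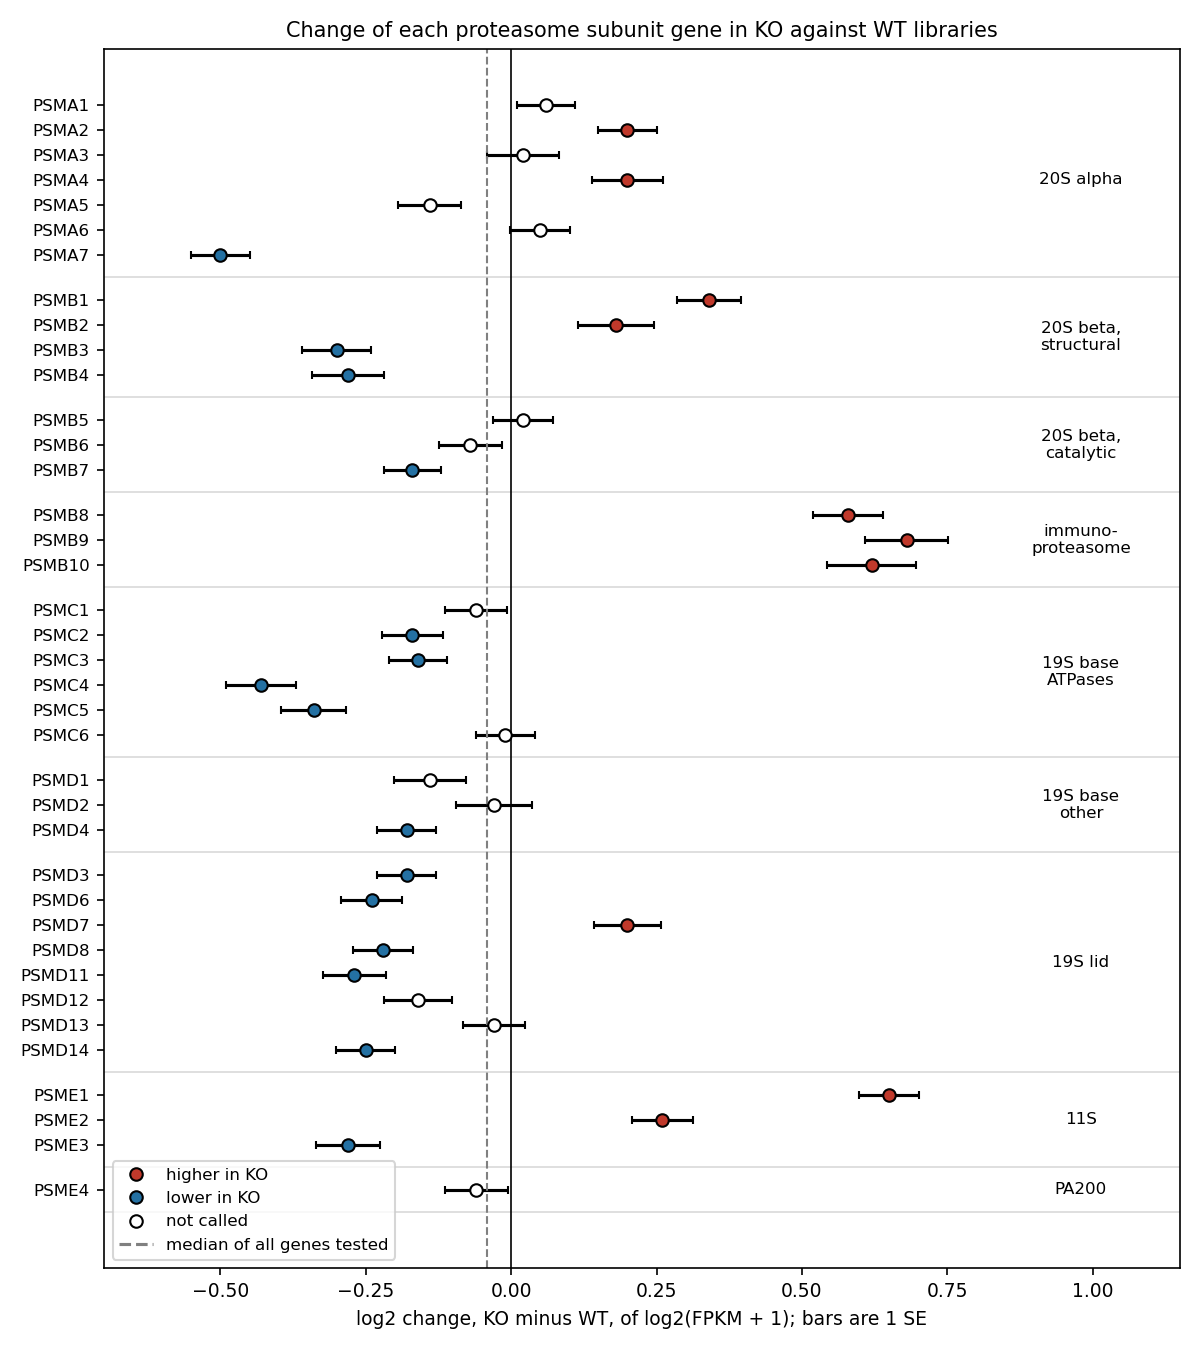
Log2 change of each subunit gene, libraries labelled KO minus WT, on the log2(FPKM + 1) scale; points are limma estimates, bars are 1 SE, and filled points passed an adjusted p of 0.05. PSMB8, PSMB9, PSMB10 and PSME1 lie at 0.58 to 0.68, and all 9 genes of the 19S base lie left of 0, of which PSMC6 and PSMD2 turned positive under other scalings.

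The 3 immunoproteasome catalytic subunits rose together. PSMB8 (Entrez ID 5696, chromosome 6, 32840717 to 32844679, minus strand), which takes the place of PSMB5 with its chymotrypsin-like site, measured 28.3 and 28.2 FPKM in the libraries labelled KO and 17.8 and 19.4 FPKM in WT. PSMB9 (Entrez ID 5698, chromosome 6, 32854192 to 32859851, plus strand), which replaces PSMB6, measured 14.5 and 12.7 FPKM under the KO label and 7.92 and 8.26 FPKM in WT. PSMB10 (Entrez ID 5699, chromosome 16, 67934506 to 67936850, minus strand), which replaces PSMB7, measured 18.1 and 16.7 FPKM under the KO label and 10.2 and 11.7 FPKM in WT. For each of the 3, both libraries labelled KO lay above both WT libraries, with no overlap. The log2 changes were 0.58 (SE 0.060, adjusted p = 0.0002) for PSMB8, 0.68 (SE 0.071, adjusted p = 0.000199) for PSMB9 and 0.62 (SE 0.077, adjusted p = 0.000477) for PSMB10 (limma). The ratios of mean FPKM, libraries labelled KO over WT, were 1.52, 1.68 and 1.59 in the same order of genes. The highest adjusted p over the 16 alternatives was 0.0177, for PSMB10. PSMB9 was the most thinly covered subunit, with 189 fragments in WT replicate 2. PSMB8 shares 2.3% of its exon length with the antisense gene PSMB8-AS1, and the strand setting of the counting is not given in the sources used here.

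Their constitutive counterparts did not rise. PSMB5, the chymotrypsin-like subunit that bortezomib blocks, measured 104 and 108 FPKM in the libraries labelled KO and 102 and 106 FPKM in WT. PSMB6, the caspase-like subunit, measured 149 and 140.3 FPKM under the KO label and 149 and 153 FPKM in WT. PSMB7, the trypsin-like subunit, measured 134.3 and 134.4 FPKM under the KO label and 149.9 and 153 FPKM in WT. The groups overlapped for PSMB5, nearly touched for PSMB6, and were apart for PSMB7. PSMB7 fell slightly (log2 change −0.17, SE 0.049, limma adjusted p = 0.0211), a call lost under 10 of the 16 alternatives. The change of PSMB5 was 0.02, with a 95% interval of −0.10 to 0.14 (adjusted p = 0.764), and that of PSMB6 was −0.07, with an interval of −0.19 to 0.06 (adjusted p = 0.342). A missed threshold does not show that the levels were alike. PSMB7 shares 39.5% of its exon length with LOC100129034 on the opposite strand, and without a stated strand setting the reads of these genes cannot be told apart.

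**Figure D2:**
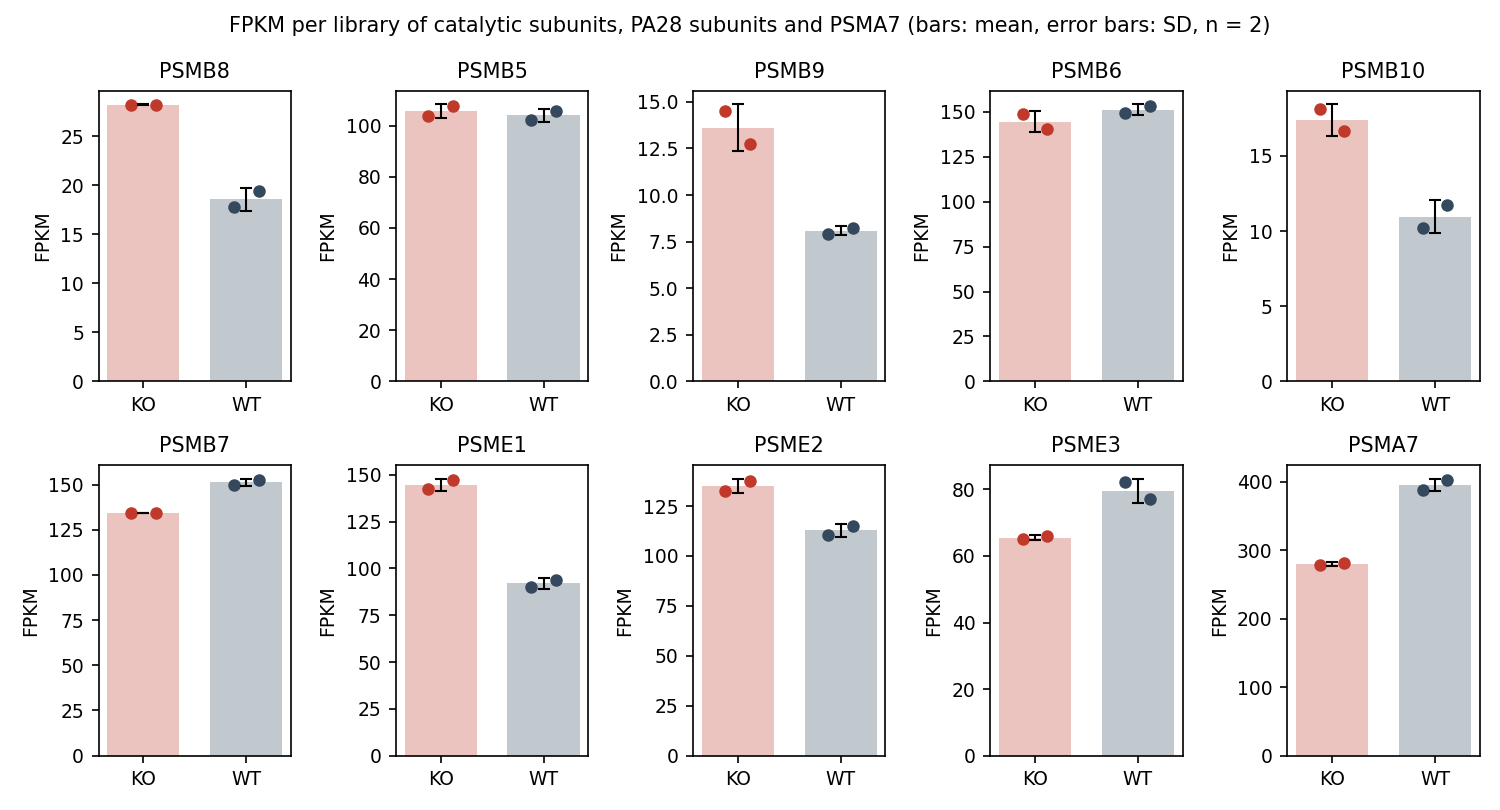
FPKM of the immunoproteasome subunits, their constitutive counterparts, the PA28 genes and PSMA7, in libraries labelled KO (left) and WT (right); points are libraries, bars the mean and error bars the SD (n = 2), and the vertical axes start at 0 and differ between genes. PSMB8, PSMB9, PSMB10 and PSME1 stand higher under the KO label, PSMA7 stands lower, and PSMB5 overlaps.

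Set beside their counterparts, the immunoproteasome subunits remained the minor form of each catalytic position in every library. PSMB8 held 21.4% and 20.8% of the summed FPKM of PSMB8 and PSMB5 in the libraries labelled KO, and 14.8% and 15.5% in WT. PSMB9 held 8.88% and 8.32% of its pair with PSMB6 under the KO label, and 5.04% and 5.11% in WT. PSMB10 held 11.9% and 11% of its pair with PSMB7 under the KO label, and 6.37% and 7.14% in WT. All 3 shares were therefore higher in both libraries labelled KO than in either WT library. The log2 ratio of immunoproteasome to constitutive subunit, from FPKM + 1, differed by 0.56 for PSMB8, 0.75 for PSMB9 and 0.79 for PSMB10 between libraries labelled KO and WT. The pooled SDs within groups were 0.045, 0.046 and 0.099 in the same order, so each difference was larger than the spread between replicates. A two-sided exact permutation test of 2 libraries against 2 gave p = 0.333 for each, the smallest p that this design allows. These are shares of RNA, and the make-up of assembled particles was not measured.

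**Figure D3:**
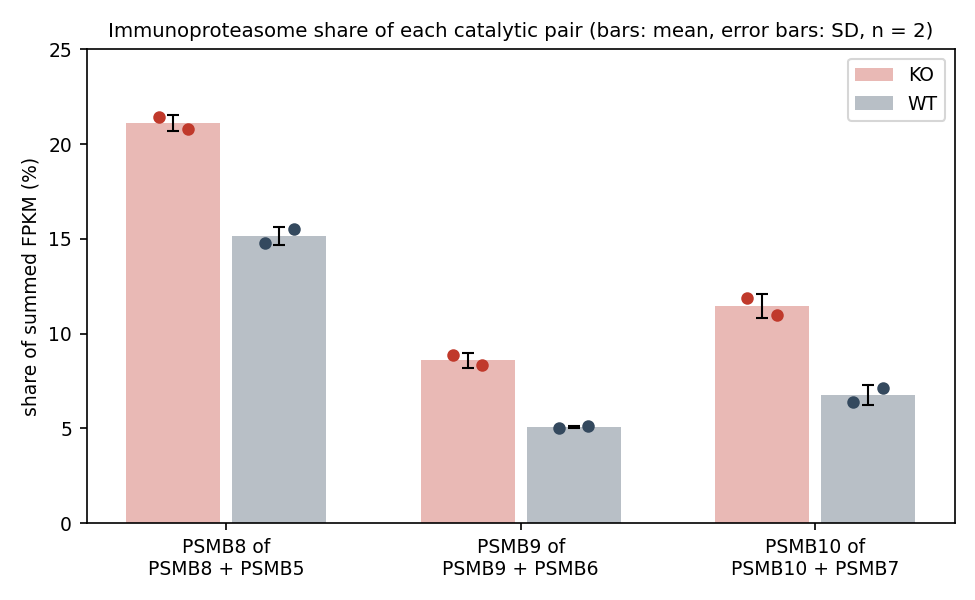
Share (%) of the immunoproteasome subunit in the summed FPKM of each catalytic pair, libraries labelled KO (left bar of each pair) and WT (right bar); points are libraries, bars the mean and error bars the SD (n = 2). The shares lie between 8.32% and 21.4% under the KO label and between 5.04% and 15.5% in WT, apart within each pair.

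The activators split. PSME1, the alpha subunit of PA28 (Entrez ID 5720, chromosome 14, 24136194 to 24138962, plus strand), measured 142 and 147 FPKM in the libraries labelled KO and 90.04 and 93.9 FPKM in WT. PSME2, the beta subunit that forms a ring with it (Entrez ID 5721, chromosome 14, 24143365 to 24146646, minus strand), measured 133 and 138 FPKM under the KO label and 111 and 115 FPKM in WT. PSME3, which forms PA28-gamma, a ring of 1 kind of subunit found in the nucleus, measured 65.0 and 66.0 FPKM under the KO label and 82.2 and 77.1 FPKM in WT. Both libraries labelled KO were above WT for PSME1 and PSME2 and below WT for PSME3. PSME1 rose by 0.65 (SE 0.052, limma adjusted p = 6.46e-05), the smallest adjusted p among the 38 subunits. PSME2 rose by 0.26 (SE 0.053, adjusted p = 0.00438), a call lost without KO replicate 2 (highest adjusted p = 0.0689). PSME3 fell, with a log2 change of −0.28 (SE 0.055, adjusted p = 0.0039). The balance of the PA28 transcripts shifted with this: PSME1 over PSME2 was 1.07 in both libraries labelled KO, against 0.814 and 0.816 in WT. PSME3 held 19.1% and 18.8% of the summed 11S transcripts under the KO label, and 29.1% and 26.9% in WT. PSME4, which encodes PA200, a large single-chain cap found in the nucleus, measured 14.4 and 14.6 FPKM under the KO label and 15.3 and 14.95 FPKM in WT. These differ little, and the change of −0.06 was not called (interval −0.18 to 0.07, adjusted p = 0.407).

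Because these 5 genes rose together, their promoters were read from RefSeq (GRCh38.p14). The windows below run from 150 bases before to 30 bases after the annotated start. They show where the letters of an interferon regulatory factor type motif, GAAANNGAA or TTCNNTTTC on the other strand, occur, and the capitals mark these letters. PSMB8 has a pair of annotated starts, and the window shown is that of the inner one, chr6:32844018-32844197 on the minus strand. The others are chr6:32854042-32854221 on the plus strand for PSMB9, chr16:67936821-67937000 on the minus strand for PSMB10, chr14:24136044-24136223 on the plus strand for PSME1 and chr14:24146581-24146760 on the minus strand for PSME2.
PSMB8: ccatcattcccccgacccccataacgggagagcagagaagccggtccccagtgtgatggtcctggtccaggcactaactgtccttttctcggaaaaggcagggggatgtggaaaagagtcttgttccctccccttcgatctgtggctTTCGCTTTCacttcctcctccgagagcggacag
PSMB9: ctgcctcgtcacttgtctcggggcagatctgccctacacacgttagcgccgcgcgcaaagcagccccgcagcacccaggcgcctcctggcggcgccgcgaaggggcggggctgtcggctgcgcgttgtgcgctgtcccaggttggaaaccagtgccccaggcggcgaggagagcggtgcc
PSMB10: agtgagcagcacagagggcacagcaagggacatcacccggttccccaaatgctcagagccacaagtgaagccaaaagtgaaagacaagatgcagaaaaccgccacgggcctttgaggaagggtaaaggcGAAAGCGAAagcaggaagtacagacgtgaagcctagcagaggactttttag
PSME1: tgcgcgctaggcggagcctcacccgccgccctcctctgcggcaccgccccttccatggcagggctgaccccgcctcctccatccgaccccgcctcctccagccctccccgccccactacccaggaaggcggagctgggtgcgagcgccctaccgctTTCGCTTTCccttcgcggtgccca
PSME2: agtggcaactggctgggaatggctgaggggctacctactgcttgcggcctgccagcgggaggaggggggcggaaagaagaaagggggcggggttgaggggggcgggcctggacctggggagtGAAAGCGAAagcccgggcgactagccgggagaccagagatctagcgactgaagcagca
Counted from the annotated start as base 0, the match begins at −3 in PSMB8, −21 in PSMB10, 6 in PSME1 and −28 in PSME2. PSMB9 had none of these letters in its window. The outer PSMB8 start had none either.

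Across the longer windows of the RefSeq table, from 250 bases before to 50 bases after the start, 33 of the 38 subunit genes had an entry. PSMA7, PSMB1, PSMB6, PSMB7 and PSMD4 did not. The letters occurred in 7 of the 33 (21.2%), beside 9.86% of 27305 genes with an entry. By call, they were found in 5 of 9 genes that were higher (PSMA4, PSMB8, PSMB10, PSME1 and PSME2), in 2 of 12 that were lower (PSMB4 and PSMC2) and in 0 of 12 that were not called. The core of the antioxidant response element, TGACNNNGC or GCNNNGTCA, which NFE2L1 binds when it raises proteasome genes, was found in 11 of the 33 (33.3%) beside 16.1% of all genes. It occurred in 4 of 9 higher, 4 of 12 lower and 3 of 12 uncalled genes. CCAAT or ATTGG was found in 17 of the 33 (51.5%) beside 39.7% of all genes, in 5 of 9 higher, 9 of 12 lower and 3 of 12 uncalled genes. Of 6 motifs searched on both strands, the other 3 were the GAS motif, an NF-kB type motif and the NRF1 core. GAS, TTCNNNGAA, another interferon motif, was in 7 genes (21.2% beside 9.38%): 2 of 9 higher, 3 of 12 lower and 2 of 12 uncalled. GGGNNTTCC or GGAANNCCC of the NF-kB type was in 4 (12.1% beside 7.95%): 2 of 9 higher, 2 of 12 lower and 0 of 12 uncalled. The NRF1 core GCGCNTGCG or CGCANGCGC was in 7 (21.2% beside 9.01%): 1 of 9 higher, 4 of 12 lower and 2 of 12 uncalled. NRF1 here means nuclear respiratory factor 1, not NFE2L1. The motifs and the windows were chosen with the changes known, and a match of letters is a description and not a bound site.

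In the 20S alpha ring 2 of 7 genes rose (28.6%, beside 21.6% of all genes tested) and 1 fell (14.3%, beside 28.4%). The other 4 were not called, and the median of the ring was 0.049. PSMA7, the subunit with the highest FPKM of all 38 in every library (Entrez ID 5688, chromosome 20), measured 278 and 282 FPKM in the libraries labelled KO and 389 and 402 FPKM in WT. Its libraries were well apart. Its fall of 0.50 on the log2 scale (change −0.50, SE 0.051, limma adjusted p = 0.000193) was the largest among the 38. The other genes of its 20 Mb stretch of chromosome 20 had a median of −0.37 (49 genes), and the call was lost when these medians were subtracted (−0.13, adjusted p = 0.0752). PSMA2 and PSMA4, the alpha2 and alpha3 subunits, which sit side by side in the ring, each rose by 0.20 (adjusted p = 0.0107 and 0.028). The call of PSMA2 was lost with its regional median of 0.14 subtracted (0.06, adjusted p = 0.353) and without either library labelled KO. PSMA2 measured 86.6 ± 0.152 FPKM under the KO label and 75.2 ± 0.709 FPKM in WT (mean ± SD, n = 2, as below). PSMA4 had the lowest FPKM of the 14 constitutive 20S subunits, at 29.2 ± 1.11 FPKM under the KO label and 25.3 ± 1.47 FPKM in WT. This rank depends on its deposited length of 4467 bp, since its 6181 fragments in KO replicate 1 exceeded the 4920 of PSMA3. Changes of the uncalled PSMA1, PSMA3, PSMA5 and PSMA6 lay between −0.14 and 0.06.

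The structural beta subunits divided evenly, 2 higher and 2 lower (50% each, beside 21.6% and 28.4% of all genes tested). PSMB1, the beta6 subunit, measured 138 and 147 FPKM in the libraries labelled KO and 110.5 and 115 FPKM in WT. PSMB3, the beta3 subunit, measured 144 and 142 FPKM under the KO label and 168 and 184 FPKM in WT. Neither gene's groups overlapped. PSMB1 rose by 0.34 (SE 0.055, limma adjusted p = 0.00157), while the change of PSMB3 was −0.30 (SE 0.059, adjusted p = 0.00395). PSMB4, the beta7 subunit, measured 194 ± 7.22 FPKM under the KO label and 237 ± 15.5 FPKM in WT (−0.28, adjusted p = 0.00618), a call lost under 3 of the 16 alternatives. PSMB2, the beta4 subunit, measured 39.4 ± 0.00929 FPKM under the KO label and 34.7 ± 2.84 FPKM in WT, and its rise of 0.18 was close to the threshold (adjusted p = 0.0445). PSMB2 and PSMA4 were the called subunits whose sign turned with regional medians subtracted (both −0.06). Taken over the 14 genes of the constitutive 20S, 4 rose, 4 fell and 6 were not called. This is 28.6% higher and 28.6% lower, beside 21.6% and 28.4% of all genes tested, so the share lower was near the background. With regional medians subtracted, 1 was higher (7.14%, beside 19.9% of all genes in that fit) and 2 lower (14.3%, beside 19.6%). Fewer were called when either library labelled KO was left out, as among all genes tested. The FPKM values of the 14 were less unequal under the KO label. The ratio of the highest to the lowest, PSMA7 to PSMA4, was 9.81 and 9.41 in the libraries labelled KO and 16.0 and 15.3 in WT. The size of such ratios between genes depends on the deposited gene lengths. The coefficient of variation across the 14 was 62.0% and 61.3% under the KO label and 80.1% and 79.9% in WT. Without PSMA7 it was 52.8% and 50.9% under the KO label and 60.3% and 62.0% in WT. PSMA7 and PSMA4 are also the genes with regional medians of −0.37 and 0.25. Across the 17 genes of the 19S the coefficient was 63.8% and 63.4% under the KO label and 63.6% and 60.9% in WT, with no such difference in spread.

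In the 19S particle most calls were lower. Of its 17 genes, 10 fell, 1 rose and 6 were not called (58.8% lower, against 28.4% of all genes tested), with a median of −0.165. The estimate was negative for 16 of the 17, although PSMC6, PSMD2 and PSMD13 were at 0.05, 0.03 and 0.04 with quantile normalization and also positive with median-of-ratios scaling or voom. The number lower depended on the libraries and the scaling. It was 3 without KO replicate 1 (17.6%, beside 17.5% of all genes in that fit) and 5 without KO replicate 2 (29.4%, beside 16.7%). It was 6 with quantile normalization or median-of-ratios scaling (35.3%, beside 25.2% and 23.1% of all genes in those fits). Most of the 10 calls were small. Those of PSMC2, PSMC3, PSMD3 and PSMD4, between −0.16 and −0.18, were each lost under 6 to 11 of the 16 alternatives.

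Among the 6 ATPases of the base, the motor ring that unfolds substrates, 4 fell (66.7%, beside 28.4% of all genes tested). PSMC4, also known as Rpt3, measured 59.7 and 56.9 FPKM in the libraries labelled KO and 75.5 and 82.2 FPKM in WT. PSMC5, or Rpt6, measured 121 and 117 FPKM under the KO label and 146 and 156 FPKM in WT. Both were lower in each library labelled KO than in either WT library. The log2 changes were −0.43 (SE 0.060, limma adjusted p = 0.000781) for PSMC4 and −0.34 (SE 0.056, adjusted p = 0.00159) for PSMC5. PSMC2 (−0.17) and PSMC3 (−0.16) fell less, and PSMC1 (−0.06) and PSMC6 (−0.01) were not called. PSMC1 shares 61.4% of its exon length with NRDE2 and PSMC2 22.9% with SLC26A5, both on the opposite strand, against 5.0% of PSMC5 with FTSJ3. In the rest of the base, the ubiquitin receptor PSMD4 measured 77.9 and 76.8 FPKM under the KO label and 88.0 and 87.3 FPKM in WT (−0.18, adjusted p = 0.0181). The scaffold subunits PSMD1 (−0.14, adjusted p = 0.0867) and PSMD2 (−0.03, adjusted p = 0.686) were not called. PSMD2 had the highest level of the 19S genes, at 192 ± 2.38 FPKM under the KO label and 197 ± 16.3 FPKM in WT, and its groups overlapped.

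In the lid 5 of 8 genes fell (62.5%, beside 28.4% of all genes tested) and 1 rose (12.5%, beside 21.6%). PSMD14, the metalloprotease that removes ubiquitin chains from substrates, measured 61.3 ± 0.929 FPKM in the libraries labelled KO and 73.3 ± 1.40 FPKM in WT (log2 change −0.25, SE 0.051, limma adjusted p = 0.00422). Its partner in the lid, PSMD7, was the single 19S gene that rose, with 62.8 and 65.0 FPKM under the KO label and 57.8 and 53.5 FPKM in WT (0.20, SE 0.058, adjusted p = 0.0219). These partners thus went opposite ways, with no overlap for either. The call of PSMD7 was kept under only 13 of the 16 alternatives, and that of PSMD14 under 15. The scaffold subunit PSMD11, known to be limiting for 26S assembly in stem cells, measured 38.7 ± 0.372 FPKM under the KO label and 46.7 ± 1.73 FPKM in WT (−0.27, adjusted p = 0.00429). PSMD6 (−0.24), PSMD8 (−0.22) and PSMD3 (−0.18), other scaffold subunits, also fell, and PSMD12 (−0.16, adjusted p = 0.0517) and PSMD13 (−0.03, adjusted p = 0.666) were not called. For PSMD6 the 27 other genes of its region had a median of −0.22, and its call was lost with regional medians subtracted (−0.03, adjusted p = 0.696). The same held for PSMD8 (regional median −0.15, then −0.07, adjusted p = 0.348).

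Summed over each part, the immunoproteasome subunits gained and most other parts lost transcript. The 3 immunoproteasome genes summed to 59.2 ± 2.35 FPKM in the libraries labelled KO and 37.7 ± 2.49 FPKM in WT, a ratio of 1.57. The 11S genes summed to 345 ± 7.56 FPKM under the KO label and 284 ± 2.23 FPKM in WT, a ratio of 1.21. The 14 constitutive 20S genes summed to 1570.0 ± 1.26 FPKM under the KO label and 1730.0 ± 60.7 FPKM in WT (ratio 0.907), and the 17 genes of the 19S to 1198 ± 3.43 FPKM under the KO label and 1343 ± 6.95 FPKM in WT (ratio 0.892). In each of these sums the groups were apart. PSMA7 alone accounts for more than the whole difference of the alpha ring, which summed to 667 ± 6.72 FPKM under the KO label and 764 ± 20.8 FPKM in WT. Over all 38 genes the sum was 3187 ± 10.0 FPKM under the KO label and 3410.0 ± 72.1 FPKM in WT, a ratio of 0.935. Immunoproteasome subunits made up 1.91% and 1.80% of it under the KO label, and 1.07% and 1.14% in WT.

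**Figure D4:**
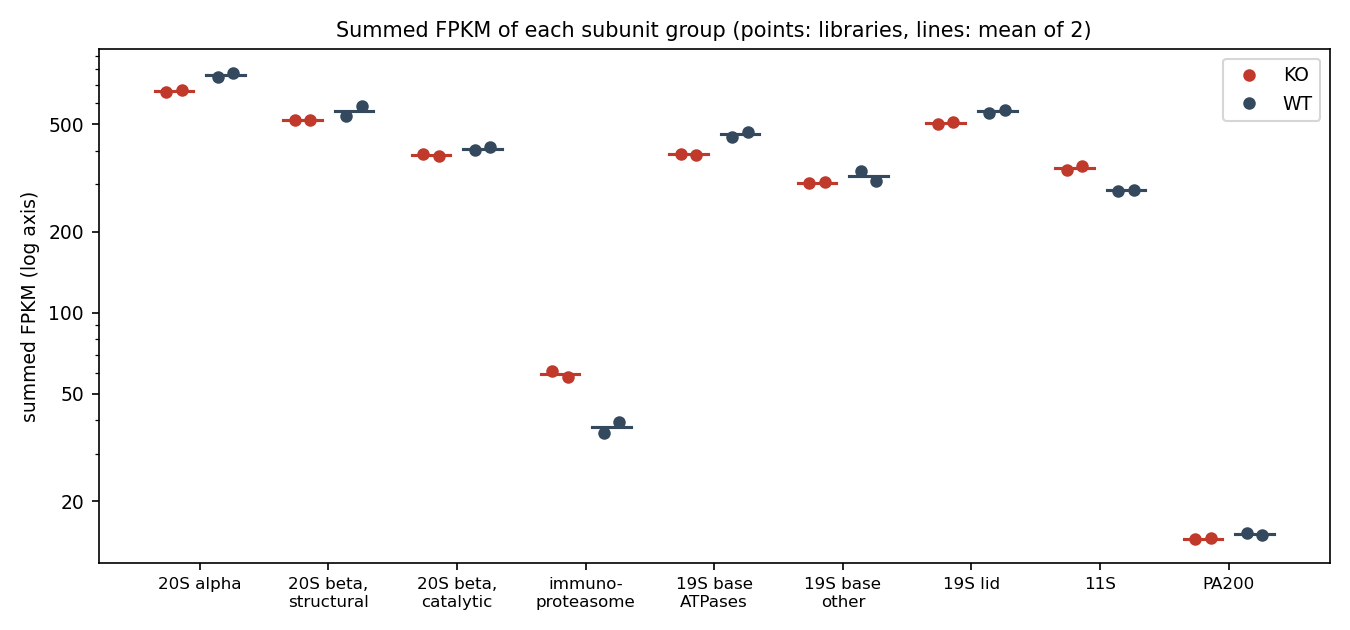
Summed FPKM of each part of the proteasome on a log axis, libraries labelled KO (left) and WT (right); points are libraries and lines the mean of 2. The immunoproteasome and 11S sums are higher under the KO label (ratios 1.57 and 1.21), and the alpha ring and 19S ATPase sums are lower (ratios 0.873 and 0.843).

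The changes were also set beside those of neighbouring genes. The 38 genes lie on 13 chromosomes, and the medians of the other tested genes in their 20 Mb bins ran from −0.37 to 0.25. Of the 25 called subunits, 23 had a regional median of the same sign and 23 had a change larger than that median, the exceptions on size being PSMA4 and PSMB2 (regional median 0.25 for each). The regional medians were small beside the largest rises: 0.11 for PSMB8 and PSMB9, which share a bin, −0.05 for PSMB10 and 0.06 for PSME1 and PSME2. With regional medians subtracted, 15 of the 25 calls were kept. In that fit 44.7% of the subunits were called, beside 39.5% of all genes tested. How many of all called genes kept their call, or shared the sign of their regional median, was not counted. Chromosomes 14 and 17 hold 7 of the genes each. On chromosome 14 PSME1 and PSME2 rose and the other 5 were not called, with changes between −0.06 and 0.05. On chromosome 17 PSMB3, PSMC5, PSMD3, PSMD11 and PSME3 fell, at −0.18 to −0.34, and PSMB6 and PSMD12 were not called.

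**Figure D5:**
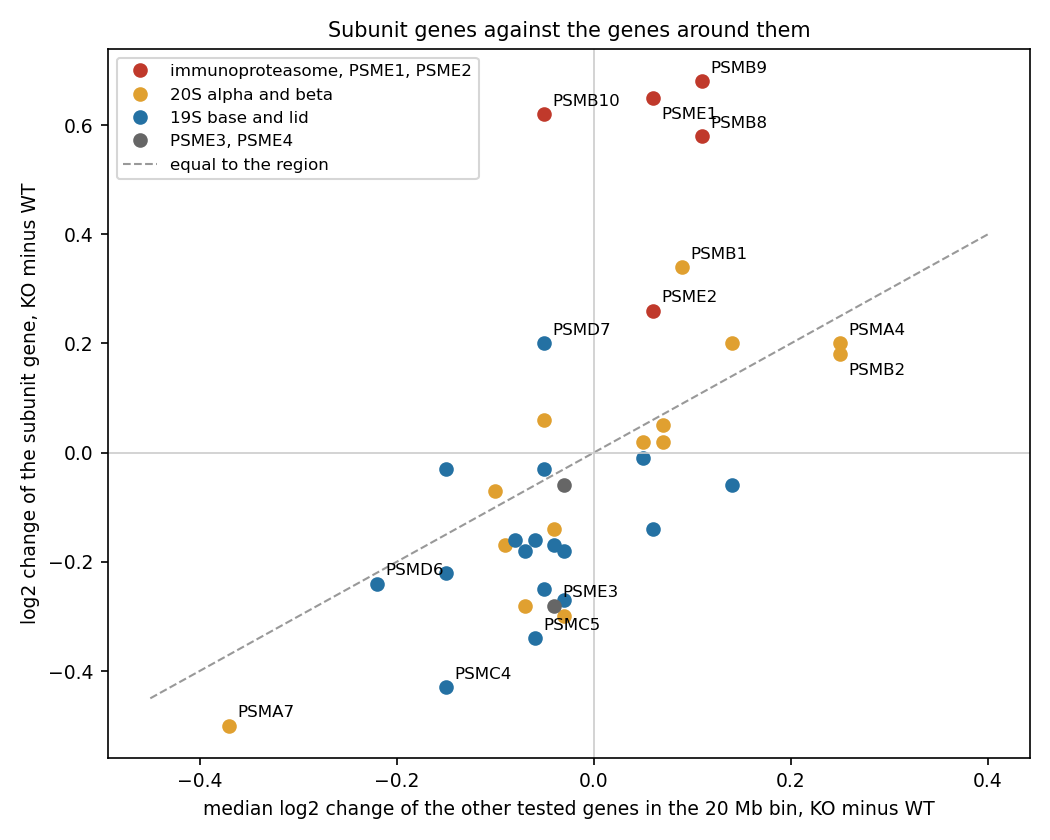
Log2 change of each subunit gene (vertical axis, libraries labelled KO minus WT) against the median log2 change of the other tested genes in its 20 Mb bin (horizontal axis); the dashed line marks equality. PSMB8, PSMB9, PSMB10 and PSME1 lie far above the line, PSMA7 lies near it at the lower left, and PSMA4 and PSMB2 lie below it at a regional median of 0.25.

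Genes that build, feed and control the proteasome, 64 in 6 lists, were read in the same fit. Of the 61 that were tested, the libraries labelled KO had 16 higher and 19 lower (57.4% called, against 49.9% of all genes tested), with a median of −0.007. Of 9 assembly chaperones 3 fell and 0 rose, a share lower of 33.3% that is near the 28.4% of all genes. They were PSMD9 (−0.41, adjusted p = 0.00384), PSMG1 (−0.25, adjusted p = 0.0432) and PSMG2 (−0.23). With regional medians subtracted all 3 of these calls were lost (adjusted p = 0.0647 for PSMD9 and 0.118 for PSMG1). Fewer chaperones were called lower when either library labelled KO was left out, as among all genes tested. POMP, the chaperone that matures the beta ring, stood at −0.11 (adjusted p = 0.185). Among other subunits and bound factors, 4 of 8 tested fell (50%, beside 28.4% of all genes) and 0 rose. Fewer of them were called lower when either library labelled KO was left out, as among all genes tested. ADRM1, the ubiquitin receptor also called Rpn13, measured 71.5 and 65.9 FPKM under the KO label and 117 and 129 FPKM in WT (−0.83, SE 0.068, adjusted p = 7.18e-05). This drop was larger than that of any of the 38 subunits, and, like PSMA7, ADRM1 lies in a chromosome 20 region with a median of −0.37. With regional medians subtracted ADRM1 was at −0.46 and still called (adjusted p = 0.00139), unlike PSMA7. UCHL5, the deubiquitinase that ADRM1 holds on the particle, measured 9.23 and 9.47 FPKM under the KO label and 11.6 and 12.2 FPKM in WT (−0.32, adjusted p = 0.0027).

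The list for transcription of proteasome genes held 10 genes, of which 4 fell and 0 rose. This is 40% called and 40% lower, beside 49.9% and 28.4% of all genes tested. MAFF, a small partner of the NFE2L factors, fell most (−0.51, SE 0.057, limma adjusted p = 0.00029), followed by NFE2L3, a relative of NFE2L1 (−0.38, adjusted p = 0.00143). NFE2L1, the factor that restores proteasome genes when activity is blocked, stood at −0.11 and was not called (adjusted p = 0.135). The 11 genes for ubiquitin, its activating enzymes and shuttles went both ways, 3 higher (27.3%, beside 21.6% of all genes) and 5 lower (45.5%, beside 28.4%). Fewer were called lower when either library labelled KO was left out, as among all genes tested. UBQLN2, a shuttle, rose by 0.52 (adjusted p = 0.000244) and UBA6, an activating enzyme, by 0.43 (adjusted p = 0.000671), a call that for UBA6 was lost with its regional median of 0.33 subtracted (0.09, adjusted p = 0.247). RAD23B, another shuttle, had a change of −0.30 (adjusted p = 0.00183).

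The interferon signalling list did not move one way, with 3 of 9 higher (33.3%, beside 21.6% of all genes) and 2 lower (22.2%, beside 28.4%). Fewer were called in each direction when either library labelled KO was left out, as among all genes tested. JAK1, a receptor kinase, rose by 0.34 (SE 0.058, limma adjusted p = 0.00202), a call lost with its regional median of 0.22 subtracted (0.12, adjusted p = 0.146). IRF1, a factor that drives immunoproteasome genes, rose by 0.28 (adjusted p = 0.00438). The receptor chain IFNGR1 had a change of −0.23 (adjusted p = 0.00959). In the list for peptide transport and class I loading 10 of 14 tested genes rose and 1 fell (71.4% higher, against 21.6% of all genes tested), with a median of 0.387. HLA-B, a class I heavy chain whose reads can be shared with related HLA genes, rose by 0.93 (adjusted p = 8.63e-06) and its light chain B2M by 0.71 (adjusted p = 3.09e-05, regional median 0.36). TAP2, a chain of the peptide transporter, lies beside PSMB8 on chromosome 6 and had a change of −0.24 (adjusted p = 0.0123). TAP1, its partner, rose by 0.39 (adjusted p = 0.000657).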

How the data were processed

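Total RNA was sequenced by a service company on an Illumina platform, per the labels' protocols. The authors deposited 1 table of FPKM values for 39259 Entrez genes in 4 libraries, with exon coordinates and lengths, per the file headers. STAR, Subread and DESeq2 are named, with no version or role, in the submitters' processing notes. Genome build, gene models and strandedness were not given in the sources used here. FPKM times length summed to 1000000 in each library, and 100% of values gave back whole fragments (tolerance 0.001), which gave the depths. Symbols came from RefSeq (GRCh38.p14; 37708 identifiers matched, 96.0%). Coordinates are as deposited, and 98.4% of matched genes lie within 1000 bp of that assembly.

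The main test was limma 3.58.1 (R 4.3.3, trend and robust) on log2(FPKM + 1), restricted to a mean FPKM of 1 or more, Benjamini-Hochberg over 11716 genes, threshold 0.05. This scale understates changes of low genes. Steps were tested on simulated data. The subunits, gene lists and motifs were chosen with earlier results of these data known. Values per library are given for catalytic, immunoproteasome and activator subunits and for other subunits with changes of at least 0.3, and from each list the largest 2 rises and 2 falls are named; other names were chosen after their values were seen, and a few genes of the lists are not reported here. Alternatives were pseudocount, filter, scaling, voom on fragments, regional medians (20 Mb bins), length and GC trends (GC known for 93.9% of genes), replicate blocks and each library left out. Replicates differed beyond counting noise, with a chi-square over its degrees of freedom of 4.17 in the pair labelled KO and 5.79 in the WT pair. Of the subunits, 19 have 48 named pseudogenes in RefSeq, and the handling of shared reads is not stated.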

Additional observations from a re-analysis of the deposited data

How the results depend on the processing

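The calls of PSMB1, PSMB8, PSMB9, PSMB10 and PSME1 as higher held under all 16 alternatives. So did the calls of PSMB3, PSMC4, PSMC5, PSMD11 and PSME3 as lower, and no share of all genes tested stands beside these. Of the alternatives, the length and GC trends and the crossed pairing were added after the data were seen. Leaving out 1 library gave 5 to 10 subunits higher and 7 to 17 lower, and 1559 to 3076 of all genes higher and 1962 to 4001 lower. These numbers fell without either library labelled KO, and the lone library of a group was assumed to vary like the other pair. Scaling moved the balance of all genes called: 2527 higher and 3323 lower as deposited, 2920 higher and 2710 lower under median-of-ratios scaling, and 3204 higher and 2995 lower using voom. Under both scalings 10 subunits were higher, while 10 and 11 were lower. Testing genes without the filter left 7 subunits higher (18.4%) and 10 lower (26.3%). Of the 25798 genes tested in that fit, 8.68% were higher and 10.3% lower.

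The replicate numbers are shared between the groups, but the labels name no shared culture and same-numbered libraries did not deviate together (correlation −0.225). A fit with a replicate block called 9 subunits higher and 12 lower, and 2348 of all genes higher and 3029 lower. A crossed replicate block, KO replicate 1 with WT replicate 2, called 10 subunits higher and 18 lower, and 2839 of all genes higher and 3821 lower.

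Signs turned for small changes, nearly all of them not called, and the cause was not tested. With regional medians subtracted, PSMA3, PSMA4, PSMA6, PSMB2 and PSMB5 were at −0.02, −0.06, −0.02, −0.06 and −0.05, and PSMB6, PSMD2 and PSMD13 at 0.04, 0.12 and 0.02. With the length trend removed PSMB6 was at 0.06 and PSMD13 at 0.04, and with length and GC trends removed they were at 0.06 and 0.02. PSMC6, PSMD2 and PSMD13 were at 0.05, 0.03 and 0.04 with quantile normalization, and at 0.03, 0.01 and 0.02 under voom and median-of-ratios scaling alike. Leaving out 1 library gave −0.05 to 0.10 for PSMA3, −0.01 to 0.05 for PSMB5, −0.12 to 0.05 for PSMD2 and −0.06 to 0.01 for PSMD13. The log2 ratio of PSMB9 to PSMB6 differed by 0.81, not 0.75, with a pseudocount of 0.1 or with none. Depth limits PSMB9 and PSMB10 most, with 189 and 258 fragments in WT replicate 2.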

Other observations

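The tissue-specific core subunits were near or at 0. PSMA8, the alpha subunit of the testis, was listed at 0 in all 4 libraries. PSMB11, the catalytic subunit of the thymus, measured 0.0111 and 0 FPKM in the libraries labelled KO and 0.012 and 0.0481 FPKM in WT, from at most 2 fragments in a library. HLA-F, a class I gene below the filter, measured 0.622 and 0.579 FPKM under the KO label and 0.541 and 0.555 FPKM in WT, and was not tested.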
